A study of Mus musculus with 12 samples.

Results

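Vipr2, Wdr60, Esyt2, Ncapg2 and Ptprn2 lie one after the other on mouse chromosome 12, over 1.2 Mb of genome build mm10. With Zfp386 and Rapgef5, the named genes on either side, they are 7 of the 29454 genes in the deposited table of hippocampal RNA, and they were chosen by name after their levels in mice with the CaMKIIα-tTA driver had been seen. The ratio to the wild-type mean in each library chose them, so these ratios are given as a description, without a test. The name under which the genes were picked says that they are halved with the driver. As a description, mean ratios with the driver alone were 0.461 for Wdr60, 0.440 for Ncapg2 and 0.551 for Esyt2. With the driver and the CX3CL1 transgene they were 0.474, 0.476 and 0.560. Whether Wdr60 and Ncapg2 lie above or below 0.5 turns on which wild-type library is the reference. Ptprn2 stayed above 0.5 of the wild-type mean in every library with the driver, and Vipr2 was not lower at all.

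Total RNA of the hippocampus was sequenced in 12 libraries after removal of ribosomal RNA. Pups with no transgene gave the 3 WT libraries. Pups carrying CaMKIIα-tTA alone, a driver in which the promoter of Camk2a makes the tetracycline transactivator in forebrain neurons, gave the 3 CAMK libraries. Pups carrying both that driver and Tg-CX3CL1-ct, which encodes the C-terminal end of the chemokine CX3CL1, gave the 6 CX3CL1-ct libraries. Driver mice were bought from Jackson Lab, the transgenic line was crossed back to C57BL/6J for 6 generations, the strain label reads C57/BL6 in every group, and the pups of all 3 groups were littermates. The sample labels give the age as P4 and the series' design text gives P0. No label states the stock of the driver line, the place of its insertion, whether a pup had 1 or 2 copies of it, the sex or the litter, and none says whether libraries come from separate animals. The p-values below therefore measure only the spread between these samples, which may be technical.

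The 5 genes of the stretch act in unlike processes. Wdr60 encodes an intermediate chain of dynein-2, the motor that carries cargo from the tip of the cilium back to its base. Esyt2 encodes an extended synaptotagmin, which tethers the endoplasmic reticulum to the plasma membrane and moves lipids between them. Ncapg2 encodes a subunit of condensin II, which compacts chromosomes in dividing cells. Ptprn2 encodes phogrin, a membrane protein of dense-core vesicles, the organelles that store neuropeptides and hormones, and Vipr2 encodes VPAC2, a receptor for the neuropeptides VIP and PACAP. Zfp386 encodes a zinc finger protein and Rapgef5 an exchange factor that activates small GTPases of the Ras family. As background from outside these data, the insertion of a widely used CaMKIIα-tTA line has been mapped to this stretch, with loss of native sequence at it. The copy number of the stretch was not measured here.

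Transcription of the 5 genes starts at separate places on both strands, Wdr60 on the minus strand and the others on the plus strand. The sequence upstream of each start is shown because the genes lie side by side while their levels did not all move together. The runs below are RefSeq's, build GRCm38.p6, read 5′ to 3′ on the gene's own strand and ended before the first annotated exon. Capitals mark the GC box, GGGCGG or its reverse complement CCGCCC, which Sp1-family factors bind.
Vipr2, chr12:116077476-116077725, plus strand: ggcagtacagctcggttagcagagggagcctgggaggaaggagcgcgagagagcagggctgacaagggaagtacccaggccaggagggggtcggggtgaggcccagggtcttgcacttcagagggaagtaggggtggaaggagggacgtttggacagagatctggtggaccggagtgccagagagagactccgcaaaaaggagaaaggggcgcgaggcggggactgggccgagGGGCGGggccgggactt
Wdr60, chr12:116263026-116263275, minus strand: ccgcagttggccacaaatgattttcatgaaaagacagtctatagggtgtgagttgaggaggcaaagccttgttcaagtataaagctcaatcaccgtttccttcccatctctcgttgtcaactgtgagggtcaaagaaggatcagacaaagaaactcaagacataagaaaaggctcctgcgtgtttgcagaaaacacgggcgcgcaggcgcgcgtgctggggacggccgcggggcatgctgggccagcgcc
Esyt2, chr12:116280972-116281195, plus strand: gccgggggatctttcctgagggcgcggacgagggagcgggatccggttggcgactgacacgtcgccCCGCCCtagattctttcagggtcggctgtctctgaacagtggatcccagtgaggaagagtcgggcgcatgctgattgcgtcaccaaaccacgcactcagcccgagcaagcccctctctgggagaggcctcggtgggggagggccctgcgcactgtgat
Ncapg2, chr12:116405186-116405401, plus strand: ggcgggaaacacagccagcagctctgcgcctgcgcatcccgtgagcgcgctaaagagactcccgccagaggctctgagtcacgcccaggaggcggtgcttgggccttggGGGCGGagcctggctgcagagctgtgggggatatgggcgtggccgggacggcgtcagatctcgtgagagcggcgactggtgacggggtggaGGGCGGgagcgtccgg
Ptprn2, chr12:116485470-116485719, plus strand: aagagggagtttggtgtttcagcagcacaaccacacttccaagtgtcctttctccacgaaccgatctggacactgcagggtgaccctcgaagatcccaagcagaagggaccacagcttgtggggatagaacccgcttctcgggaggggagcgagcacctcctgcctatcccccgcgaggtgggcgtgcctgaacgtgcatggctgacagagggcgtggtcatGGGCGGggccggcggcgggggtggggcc
All 7 genes matched an entry of the RefSeq promoter table, with 8 promoters among its 32851, each from 250 bases before to 50 bases after the start. The GC box occurred on either strand in the full windows of Zfp386, Vipr2, Esyt2, Ncapg2 and Ptprn2 and in the second of the 2 Rapgef5 windows, but not in that of Wdr60, and it occurs in 35.7% of all promoters in the table. TATAAA occurred in the window of Wdr60 alone among the 8, against 13.6% of all promoters. CCAAT occurred in those of Zfp386 and in the second of Rapgef5, against 37.4%. The cAMP response element TGACGTCA occurred in none of the 8, against 1.79% of all promoters. The windows of the 5 genes held 56.0 to 68.0% G and C, above the median of 52.7% over all promoters, and 18 to 30 CpG against a median of 7. No motif searched here is shared by Wdr60, Esyt2, Ncapg2 and Ptprn2 and missing from Vipr2. Wdr60 held only TATAAA, which no other window held, so none could be shared, and nothing is read from this about the levels.

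Depth, inferred from the smallest values of short genes, lay between 11000000 and 16200000 fragments in each library, and 15318 to 15861 genes reached 1 FPKM (fragments per kilobase, a level relative to gene length and to the library as a whole) in each. No pair of libraries held identical values. Libraries of a group correlated over genes by 0.949 to 0.963 in WT, 0.955 to 0.969 in CAMK and 0.940 to 0.972 in the CX3CL1-ct group. CX3CL1-ct 1 to 3 stand apart from CX3CL1-ct 4 to 6 at several genes, among them Sp8 on chromosome 12, so results on CX3CL1-ct are also given without them where that matters. Cx3cl1 itself stood at 40.6 FPKM in WT, 38.2 in CAMK and 38.6 in the CX3CL1-ct group, and Camk2a at 34.8, 24.6 and 24.6. All 12 markers of hippocampal excitatory neurons were detected in each group, with a summed level of 280 to 482 FPKM in WT, 337 to 464 in CAMK and 163 to 505 in the CX3CL1-ct group. Single markers differed more than the sum, and 7 of the 12 were lower than in WT in each driver group. Their median log2 difference from WT was -0.26 in CAMK and -0.18 in CX3CL1-ct, beside 0.00 and 0.04 over all genes tested.

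Wdr60, the dynein-2 chain (chromosome 12, 116206262 to 116263022, minus strand), stood at 3.85, 5.20 and 5.51 FPKM in WT 1, 2 and 3. It stood at 2.17, 2.37 and 2.18 in CAMK 1, 2 and 3, and at 2.00, 2.39, 2.29, 2.06, 3.05 and 2.04 in CX3CL1-ct 1 to 6. All 9 libraries with the driver were below all 3 WT libraries, and CX3CL1-ct 5 was the highest of the 9. Relative to the WT mean, Wdr60 was 0.461 ± 0.0227 in CAMK (SD, n = 3) and 0.474 ± 0.0814 in CX3CL1-ct (n = 6). In 8 of the 9 libraries the ratio was below 0.5. WT itself was spread, with an SD of 0.182 on the same ratio, and its lowest library was WT 1.

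Esyt2, the lipid-transfer tether (116281196 to 116391050, plus strand), stood at 16.5, 17.9 and 16.8 FPKM in WT 1, 2 and 3. It stood at 9.29, 9.15 and 9.76 in CAMK 1, 2 and 3, and at 8.59, 9.15, 9.95, 9.90, 8.90 and 10.9 in CX3CL1-ct 1 to 6. The groups with the driver again lay wholly below WT. The ratio was 0.551 ± 0.0187 in CAMK and 0.560 ± 0.0490 in CX3CL1-ct, and it was above 0.5 in all 9 libraries, from 0.503 to 0.636. An estimated 602 to 1160 fragments per library lie behind these values, and the WT ratios had an SD of 0.0407.

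Ncapg2, the condensin II subunit (116405402 to 116463731, plus strand), stood at 2.42, 3.70 and 3.30 FPKM in WT 1, 2 and 3. It stood at 1.15, 1.75 and 1.24 in CAMK 1, 2 and 3, and at 1.36, 1.70, 1.67, 1.31, 1.49 and 1.43 in CX3CL1-ct 1 to 6. All 9 libraries with the driver were below all 3 WT libraries. The ratio was 0.440 ± 0.102 in CAMK and 0.476 ± 0.0501 in CX3CL1-ct, below 0.5 in 6 of the 9. As for Wdr60, the WT libraries were spread (SD 0.208) and WT 1 was the lowest. An estimated 71 to 190 fragments per library lie behind Ncapg2 and 79 to 235 behind Wdr60, so counting error is larger for these 2 genes than for Esyt2.

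Ptprn2, which encodes phogrin (116485720 to 117276849, plus strand), stood at 33.3, 30.4 and 32.0 FPKM in WT 1, 2 and 3. It stood at 21.8, 19.7 and 22.3 in CAMK 1, 2 and 3, and at 17.1, 16.3, 17.6, 21.4, 20.9 and 24.2 in CX3CL1-ct 1 to 6. The groups with the driver lay below WT without overlap, by a smaller step than for the other lowered genes. The ratio was 0.666 ± 0.0424 in CAMK and 0.614 ± 0.0963 in CX3CL1-ct, and none of the 9 libraries was below 0.5 (0.512 to 0.759). Within CX3CL1-ct, libraries 1 to 3 were the lowest, and libraries 4 to 6 overlapped CAMK. An estimated 657 to 1313 fragments per library lie behind these values, and the WT ratios had an SD of 0.0459.

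Vipr2, the VPAC2 receptor (116077726 to 116146261, plus strand), stood at 0.565, 0.410 and 0.369 FPKM in WT 1, 2 and 3. It stood at 0.485, 0.410 and 0.641 in CAMK 1, 2 and 3, and at 0.359, 0.863, 0.562, 0.433, 0.498 and 0.337 in CX3CL1-ct 1 to 6. The 3 groups overlapped throughout, so Vipr2 did not follow its neighbours downward. Its ratio was 1.14 ± 0.264 in CAMK and 1.14 ± 0.431 in CX3CL1-ct. The lowest library, CX3CL1-ct 6, was at 0.752 of the WT mean, above every driver library of Wdr60, Esyt2 and Ncapg2. An estimated 12 to 40 fragments per library lie behind these values, and the gene was below 1 FPKM in all 12 libraries, so it failed the filter on low values (at least 1 FPKM in at least 3 libraries) and was not tested with the others.

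The flanking genes did not follow either. Zfp386 (116047724 to 116063360, plus strand), which ends 14.4 kb before Vipr2 starts, stood at 16.1, 17.8 and 19.1 FPKM in WT 1, 2 and 3. It stood at 16.7, 18.6 and 19.5 in CAMK 1, 2 and 3, and at 15.2, 19.0, 16.8, 17.4, 19.1 and 21.2 in CX3CL1-ct 1 to 6. Its groups overlapped, with a ratio of 1.03 ± 0.0814 in CAMK and 1.03 ± 0.118 in CX3CL1-ct. Rapgef5 (117516479 to 117759737, plus strand), which starts 239.6 kb after Ptprn2 ends, stood at 11.4, 13.9 and 13.6 FPKM in WT 1, 2 and 3. It stood at 14.4, 11.9 and 13.8 in CAMK 1, 2 and 3, and at 13.1, 13.8, 14.0, 13.7, 14.0 and 15.0 in CX3CL1-ct 1 to 6. Here too the groups overlapped, and the ratio was 1.03 ± 0.0993 in CAMK and 1.08 ± 0.0478 in CX3CL1-ct. In these bulk samples, fewer cells of a type and less RNA per cell cannot be told apart for any of the 7 genes.

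**Figure D1:**
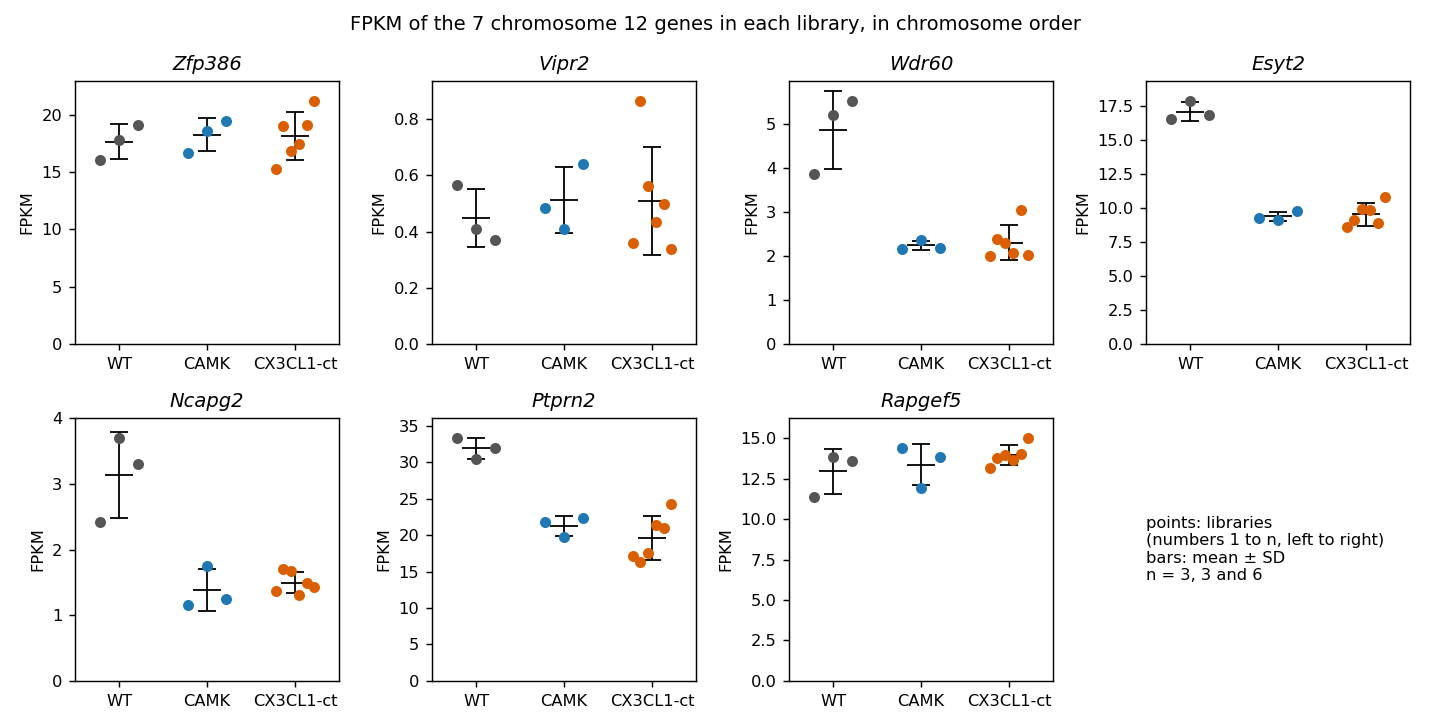
FPKM (y axis) of the 7 genes in each library, by group (x axis). Bars mark the mean ± SD. For Wdr60, Esyt2, Ncapg2 and Ptprn2 all 9 libraries with the driver lie below all 3 WT libraries, while Vipr2, Zfp386 and Rapgef5 overlap between the groups.

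If 1 of 2 copies of a gene were lost and the other were read as before, the ratio would be 0.5. Over Wdr60, Esyt2, Ncapg2 and Ptprn2 in the 9 driver libraries the 36 ratios ran from 0.368 to 0.759 with a median of 0.534, and 14 of them were below 0.5, all from Wdr60 and Ncapg2. In each library the median ratio over the 5 genes of the stretch was 0.558 ± 0.0137 in CAMK (0.544 to 0.572) and 0.572 ± 0.0522 in CX3CL1-ct (0.503 to 0.636). Without Vipr2 it was 0.518 ± 0.0262 and 0.526 ± 0.0368. With CX3CL1-ct 1 to 3 left out, the median over the 5 genes was 0.614 in CX3CL1-ct. The ratios of Wdr60 and Ncapg2 thus lie on both sides of 0.5, those of Esyt2 just above it and those of Ptprn2 further above it.

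The choice of the WT reference moves Wdr60 and Ncapg2 across 0.5. Against WT 1 alone, the library in which both were lowest, the CAMK mean was 0.581 for Wdr60 and 0.571 for Ncapg2. Against WT 2 alone the means were 0.431 and 0.374, and against WT 3 alone 0.406 and 0.419. Esyt2 was steadier, at 0.569, 0.527 and 0.558 against WT 1, 2 and 3. Ptprn2 was at 0.638, 0.700 and 0.664, above Esyt2 under each reference. With 3 WT libraries the level of Wdr60 or Ncapg2 relative to 0.5 is therefore known only to within this spread.

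In the fits against WT, limma on log2(FPKM + 1) with Benjamini-Hochberg adjustment over 16503 genes called 3 of the 4 lowered genes lower in CAMK (all but Ptprn2), where 0.273% of all genes tested were called lower, and all 4 lower in CX3CL1-ct, where the share was 0.254%. With the replicate number as a block, which the pairing of CAMK with WT allows, Ptprn2 was called as well, where 2.97% of all genes were called in either direction. In each of these 2 comparisons the groups did not overlap for 4 of 4, against 8.8% of all genes lower without overlap in CAMK and 1.38% in CX3CL1-ct. All 9 driver libraries were below all 3 WT libraries for 4 of 4, against 1.1% of all genes. The genes were picked for these contrasts, so nothing is read from the counts. As limits of the counts, 1 of the 4 was called in both comparisons without WT 2, without WT 3, or with CX3CL1-ct 1 to 3 left out or averaged, and in CAMK without CAMK 1 or CAMK 3.

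Along the chromosome the lowered genes lay together between Vipr2 and Rapgef5, which were not lower. The ends are not resolved, as Vipr2 rests on an estimated 12 to 40 fragments per library and 239.6 kb separate Ptprn2 from Rapgef5. The table holds 10 rows within the stretch, of which 6 passed the filter. Besides Wdr60, Esyt2, Ncapg2 and Ptprn2 these were Gm17807 and Gm10421, both chosen here after their values were seen. Gm17807, a processed pseudogene inside Ptprn2 on the same strand (116597253 to 116597550), stood at 7.17, 7.36 and 6.48 FPKM in WT, at 5.02, 3.69 and 4.29 in CAMK, and at 2.50, 2.88, 2.91, 2.80, 4.05 and 5.05 in CX3CL1-ct. Every library with the driver was thus below every WT library, with ratios of 0.618 in CAMK and 0.480 in CX3CL1-ct, but Ptprn2 spans it on the same strand, so the fragments of the 2 genes cannot be told apart with certainty. Gm10421, inside Ptprn2 on the opposite strand, overlapped between groups, at 0.117, 2.39 and 1.28 FPKM in WT, at most 0.630 in CAMK, and up to 2.21 in CX3CL1-ct. Gm20658, Gm6750 and Gm5441, the other rows, were near 0 and did not pass.

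Of the 5 nearest tested genes on each side, none was called in any of the 3 comparisons by limma (adjusted p at least 0.523). On the side of Vipr2 these were Zfp386, Gm9260, Gm9256, Gm9517 and Ighm, with ratios of 0.747 to 1.15 in CAMK and 0.850 to 1.13 in CX3CL1-ct. On the side of Ptprn2 they were Rapgef5, Cdca7l, Sp4, Sp8 and Itgb8, with ratios of 0.675 to 1.03 in CAMK and 1.01 to 1.92 in CX3CL1-ct. Both the 0.675 and the 1.92 belong to Sp8, a transcription factor of interneuron precursors, which stood at 11.5, 11.8 and 11.7 FPKM in CX3CL1-ct 1, 2 and 3 and at 2.24, 5.70 and 2.09 in CX3CL1-ct 4, 5 and 6. Over the 544 other tested genes of chromosome 12 the median ratio was 1.0 in CAMK, with 5th and 95th percentiles of 0.690 and 1.32, and 1.03 in CX3CL1-ct, with 0.768 and 1.36. Wdr60, Esyt2, Ncapg2 and Ptprn2 lay below those 5th percentiles in both groups. They were chosen for low ratios, so nothing is read from this position.

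**Figure D2:**
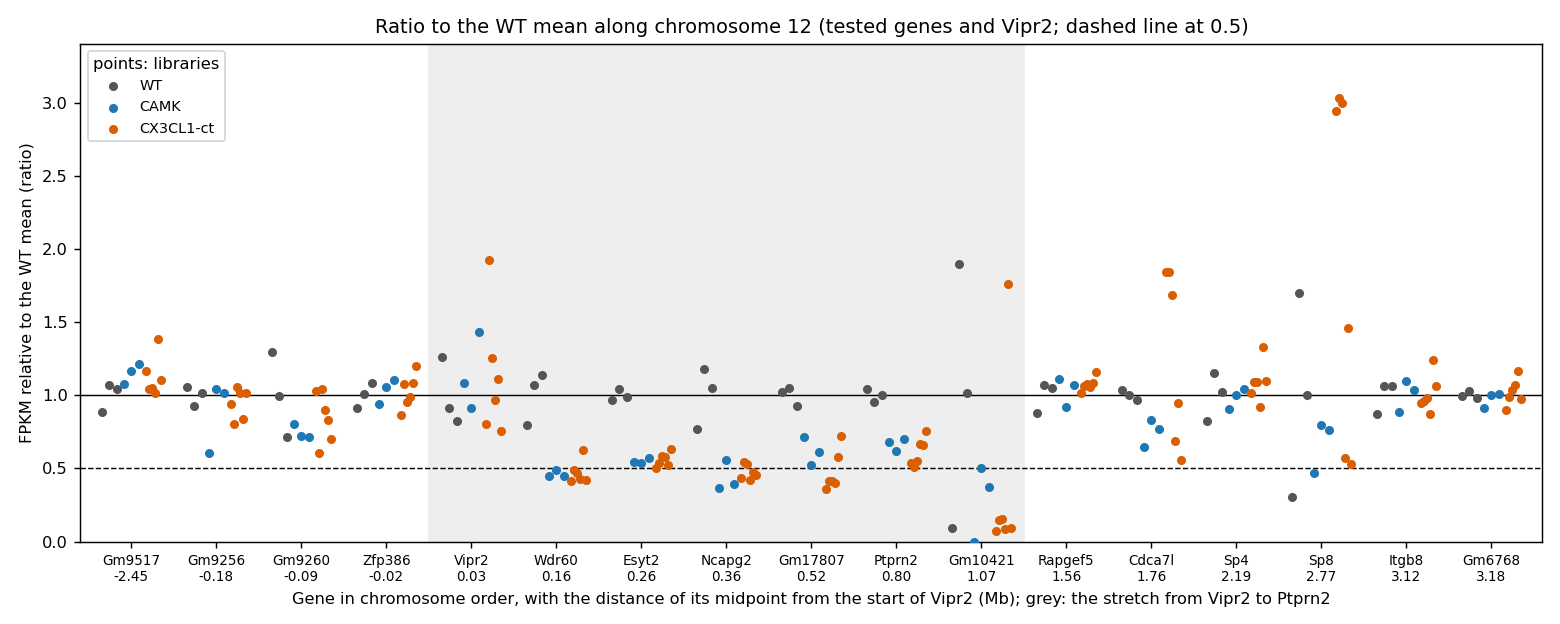
FPKM relative to the WT mean (y axis, dashed line at 0.5) of tested genes and Vipr2 in chromosome order (x axis, with the distance of each midpoint from the start of Vipr2 in Mb), one point per library. Wdr60, Esyt2 and Ncapg2 lie near 0.5 and Ptprn2 above it (0.512 to 0.759) in the driver libraries, Gm10421 is spread widely, and Zfp386, Vipr2 and Rapgef5 lie around 1.

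Runs of 3 or more neighbouring tested genes called in the same direction were few. CAMK against WT had 2, of which Wdr60, Esyt2 and Ncapg2 form one and the genes around Hand2 on chromosome 8 (AV026068, RP24-459A4.6, Hand2 and 5033428I22Rik) the other. CX3CL1-ct against WT had 3, of which Wdr60, Esyt2, Ncapg2, Ptprn2 and Gm17807 form one, the Hand2 genes another, and Celf2 with the rows Gm10855, Gm10115 and Gm26315 in the same stretch of chromosome 2 the last. CX3CL1-ct against CAMK had 1, the Celf2 run. The 2 comparisons with WT share the 3 WT libraries. The genes of the chromosome 12 run were picked for being low in these comparisons, so nothing is read from that run. Gm17807 in it lies inside Ptprn2 on the same strand. Without WT 2 or without WT 3, 1 of Wdr60, Esyt2, Ncapg2 and Ptprn2 was called, and they then form no run. RP24-459A4.6, one of the genes around Hand2, stood at 1.37 FPKM in WT and at 0.0253 in CAMK and 0.102 in CX3CL1-ct, while Wdr60, Esyt2, Ncapg2 and Ptprn2 kept 0.440 to 0.666 of their level. RP24-459A4.6 passed the filter through the WT libraries alone, which favours a low ratio.

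CX3CL1-ct against CAMK was the one contrast not itself used to choose the genes. It asks whether the second transgene moves them once the driver is present. Wdr60, Esyt2, Ncapg2 and Ptprn2 were picked as low against WT in both groups, which favours a small difference between these groups in advance. No difference was detected. The log2 difference of CX3CL1-ct minus CAMK was 0.02 for Wdr60 (95% interval -0.24 to 0.28, limma adjusted p = 0.991), 0.02 for Esyt2 (-0.13 to 0.17, 0.982) and 0.07 for Ncapg2 (-0.19 to 0.33, 0.960). For Ptprn2 it was -0.12 (-0.36 to 0.12, adjusted p = 0.896), which on this scale is a fold of 0.918 with bounds of 0.778 and 1.08. For Zfp386 it was -0.01 (-0.22 to 0.19, 0.992) and for Rapgef5 0.06 (-0.11 to 0.22, 0.942). None of the 6 tested genes passed in this fit, which has no block, where 0.0121% of all genes were called higher and 0.0485% lower. The interval of Esyt2 spans folds of 0.911 to 1.13, and those of Wdr60, Ncapg2 and Ptprn2 are wider. Differences on log2(FPKM + 1) understate the change of low genes such as Ncapg2 and Wdr60.

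The value of Ptprn2 turned on CX3CL1-ct 1 to 3, the libraries that stand apart. With the replicate block these libraries alone set the level of CX3CL1-ct. The Ptprn2 difference was then -0.30 (limma adjusted p = 0.0449), where 171 of 16503 genes were called. Without them its difference was 0.06 (-0.13 to 0.24, adjusted p = 1), opposite in sign. That of Zfp386 changed sign too, from -0.01 to 0.07 (-0.15 to 0.30). Wdr60, Esyt2, Ncapg2 and Rapgef5 were at 0.03 to 0.09 without these libraries, positive as before, and all 6 intervals hold 0. For Vipr2, fitted without the filter on low values, the difference was -0.01 (-0.24 to 0.22, adjusted p = 1). Its groups overlapped fully, and at 12 to 40 estimated fragments a difference of this size was not detectable.

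**Figure D3:**
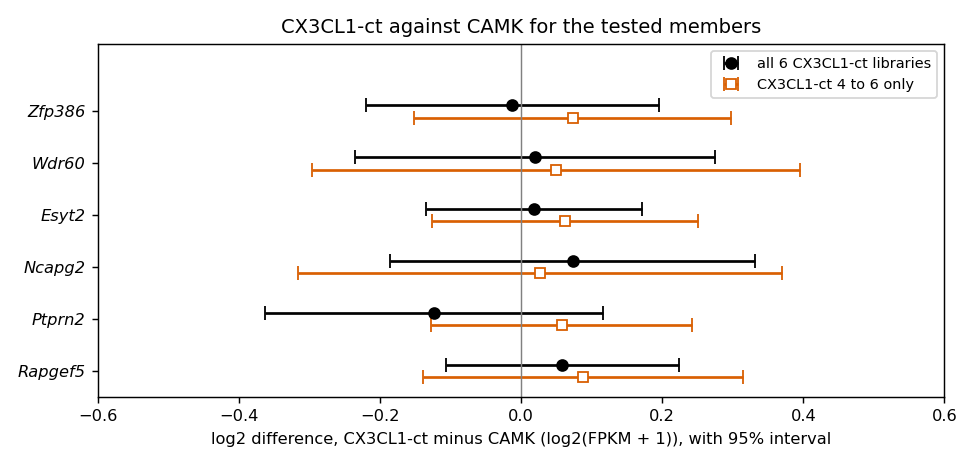
Log2 difference of CX3CL1-ct minus CAMK on log2(FPKM + 1) (x axis) with 95% intervals for the 6 tested genes (rows), over all 6 CX3CL1-ct libraries (filled) and over CX3CL1-ct 4 to 6 (open). All intervals hold 0, and Ptprn2 changes from -0.12 to 0.06 when CX3CL1-ct 1 to 3 are left out.

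The partners and relatives of each gene, encoded on other chromosomes, were followed to see whether any moved with it. For Wdr60 these were the other dynein-2 intermediate chain Wdr34, the heavy chain Dync2h1 and the light intermediate chain Dync2li1. Wdr34 stood at 15.0 FPKM in WT, 15.6 in CAMK and 14.9 in the CX3CL1-ct group, Dync2h1 at 10.8, 10.3 and 10.2, and Dync2li1 at 7.55, 6.96 and 7.79. None was called against WT by limma (adjusted p at least 0.769). Of 37 genes of dynein-2 and intraflagellar transport, without Wdr60, 0 were called in any comparison, and their median log2 difference was 0.01 in CAMK and 0.03 in CX3CL1-ct against WT, beside 0.00 and 0.04 over all genes tested.

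For Esyt2 the relatives were Esyt1 and Esyt3, the other extended synaptotagmins. Esyt1 stood at 2.66 FPKM in WT, 3.61 in CAMK and 3.38 in the CX3CL1-ct group (limma adjusted p = 0.305 and 0.376 against WT). Esyt3 stood at 0.666, 0.585 and 0.929 FPKM (adjusted p = 0.920 and 0.668), the last mean with an SD of 0.384 and its 3 highest values in CX3CL1-ct 1 to 3. Of 27 genes of contacts between the endoplasmic reticulum and the plasma membrane, 0 were called in any comparison, with medians of 0.09 and 0.06 against WT. With the replicate block, 1 was called in CAMK against WT, where 2.97% of all genes were called in either direction.

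For Ptprn2 the relative was Ptprn, the other phogrin-like protein of dense-core vesicles. Ptprn stood at 26.5 FPKM in WT, 28.5 in CAMK and 28.4 in the CX3CL1-ct group (adjusted p = 0.662 and 0.603), so its means were not lower where Ptprn2 was low. Of 23 genes of dense-core vesicle cargo and release 21 were tested and 0 were called, with medians of 0.09 and 0.06 against WT. With the replicate block 2 were called in CAMK against WT, where 2.97% of all genes were. In CX3CL1-ct it called 2 against WT, where 540 of 16503 genes were called, and 1 against CAMK, where 171 were.

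For Vipr2, whose own groups overlapped, the relatives were the receptors Vipr1 and Adcyap1r1 and the ligands Vip and Adcyap1, the last of which encodes PACAP. Vipr1 was also below 1 FPKM, at 0.707, 0.538 and 0.506 FPKM in WT, CAMK and CX3CL1-ct, and was not tested. Adcyap1r1, the PACAP receptor PAC1, stood far above both, at 48.6, 45.8 and 44.4 FPKM (adjusted p = 0.717 and 0.452). Vip stood at 1.74, 1.75 and 1.66 FPKM (0.990 and 0.908), and Adcyap1 at 6.17, 9.01 and 8.21 (0.329 and 0.409), with WT spread from 4.27 to 8.52. Of 20 genes of VIP and PACAP signalling 16 were tested and 1 was called, Adcy8, a calcium-stimulated adenylyl cyclase. Adcy8 stood at 6.10, 4.16 and 5.07 FPKM in WT, at 8.47, 8.24 and 8.52 in CAMK, and from 7.60 to 10.1 in CX3CL1-ct. It was higher in CX3CL1-ct than in WT by 0.69 on the log2 scale (limma adjusted p = 0.0137), where 0.2% of all genes tested were called higher. In CAMK it was higher by 0.63 (adjusted p = 0.0520). With the replicate block 4 of the 16 were called in CAMK against WT, where 2.97% of all genes were. In CX3CL1-ct against WT it called 4 as well, where 540 of 16503 genes were called.

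**Figure D4:**
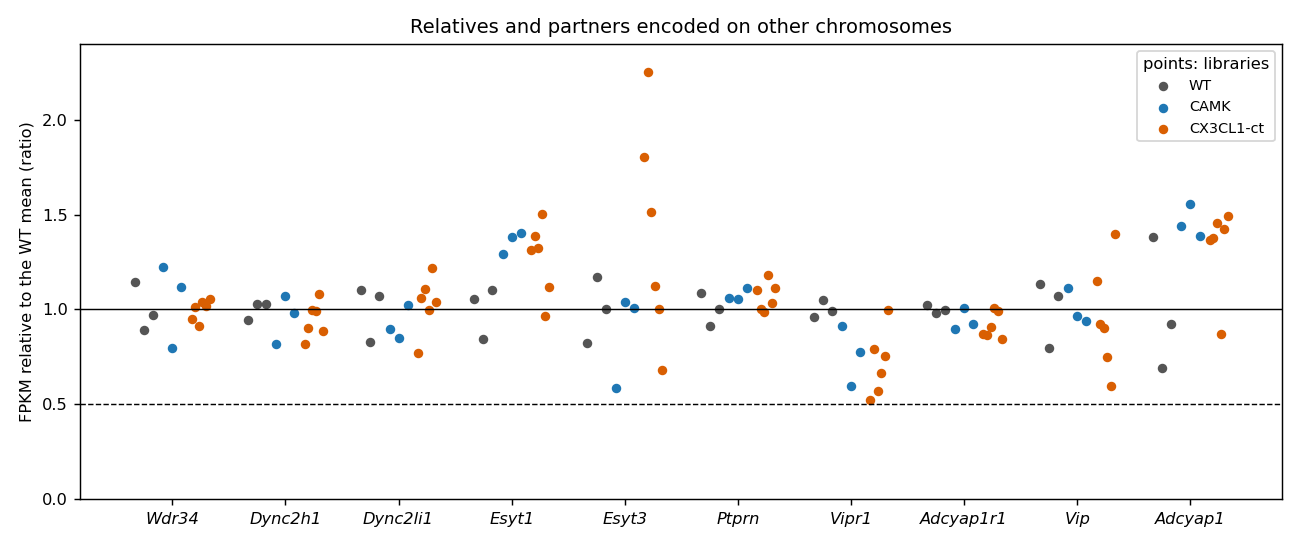
FPKM relative to the WT mean (y axis, dashed line at 0.5) of 10 relatives and partners on other chromosomes (x axis), one point per library. No gene shown has all driver libraries near 0.5, and Adcyap1r1 and Ptprn stay close to 1 in all 3 groups.

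For Ncapg2 the other condensin genes were followed, and its closest counterpart was also low in CAMK. Ncaph2 and Ncapd3, its partners in condensin II, stood at 16.1, 15.9 and 17.3 FPKM and at 6.40, 5.62 and 6.30 FPKM in WT, CAMK and CX3CL1-ct (adjusted p against WT at least 0.551). Ncapg, its counterpart in condensin I, stood at 2.46 ± 0.332 in WT, 1.31 ± 0.223 in CAMK and 1.86 ± 0.262 in the CX3CL1-ct group. That is a ratio of 0.530 in CAMK (adjusted p = 0.0713, and 0.0260 with the replicate block) and 0.755 in CX3CL1-ct (adjusted p = 0.329). Of the 8 condensin genes on the list 0 were called, with a median of -0.14 in CAMK and -0.02 in CX3CL1-ct against WT. All 8 were negative in CAMK and 6 of 8 in CX3CL1-ct.

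The summed level of 10 markers of dividing cells was 53.9 to 63.8 FPKM in WT, 36.5 to 41.8 in CAMK and 42.2 to 53.3 in the CX3CL1-ct group, and none was at 0. All 10 were negative against WT in both groups. By limma 2 were called lower in CAMK, where 0.273% of all genes were, and 0 in CX3CL1-ct, where 0.254% were. Cdk1, the kinase that starts mitosis, fell from 8.56 ± 1.24 FPKM in WT to 5.09 ± 0.586 in CAMK (adjusted p = 0.0271). Birc5, the chromosomal passenger survivin, fell from 5.75 ± 0.403 to 3.35 ± 0.275 (adjusted p = 0.0201). The median marker ratio was 0.677 ± 0.0571 in CAMK and 0.848 ± 0.0686 in CX3CL1-ct, above the Ncapg2 ratio in every driver library. Divided by that median, Ncapg2 was at 1.01 ± 0.108 in WT, 0.646 ± 0.103 in CAMK (0.577 to 0.765) and 0.563 ± 0.0491 in CX3CL1-ct (0.50 to 0.625). Ncapg2 was chosen for a low ratio to WT, which favours a low value here too, so nothing is read from this quotient. The part of these markers in the level of Ncapg2 was not tested.

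**Figure D5:**
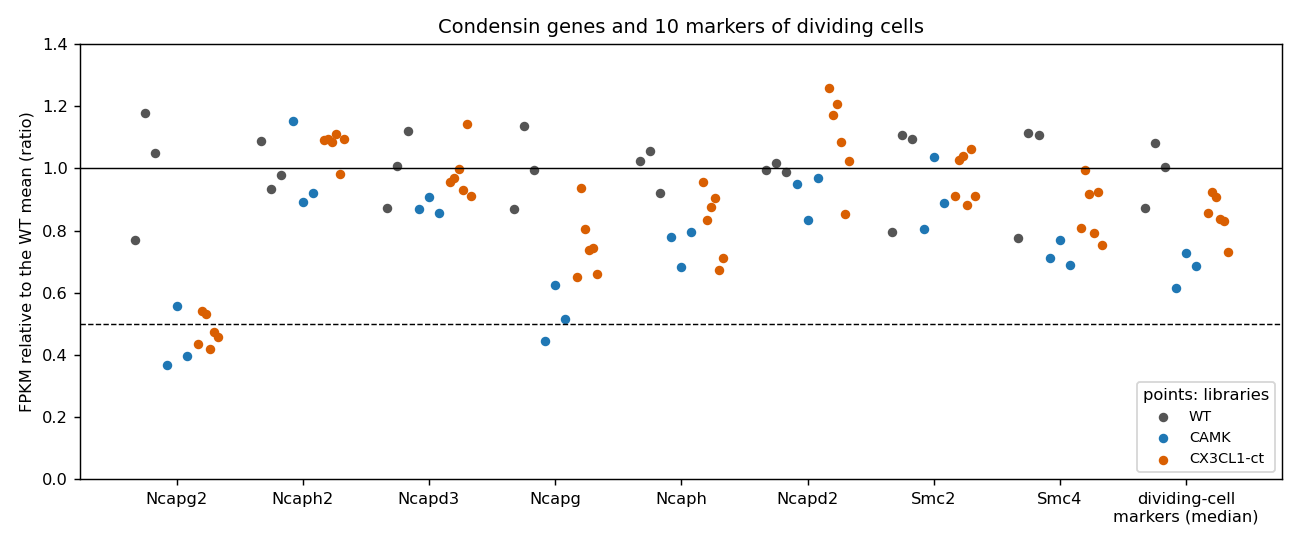
FPKM relative to the WT mean (y axis, dashed line at 0.5) of the condensin genes and the median over 10 markers of dividing cells (x axis), one point per library. Ncapg2 is near 0.5 in both groups with the driver, Ncapg is low in CAMK (0.530) and less so in CX3CL1-ct (0.755), and the marker median is 0.677 and 0.848.

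Markers of tissue next to the hippocampus also varied among the libraries. Summed striatum markers were 32.0, 243 and 173 FPKM in WT 1, 2 and 3, 39.7 to 56.6 in CAMK and 33.7 to 179 in CX3CL1-ct, where CX3CL1-ct 5 was highest, and all 10 were negative in both groups against WT with 0 called. Choroid plexus markers summed to 320 to 2367 in WT, 114 to 924 in CAMK and 168 to 650 in the CX3CL1-ct group, with 8 of 8 negative and 0 called. Interneuron markers summed to 299 to 363, 268 to 282 and 217 to 368, thalamus markers to 65.2 to 73.9, 53.4 to 139 and 53.8 to 156, and microglia markers to 36.3 to 47.8, 39.0 to 44.1 and 36.2 to 54.0, with 0 called in each list. Neocortex markers summed to 225 to 267, 236 to 341 and 226 to 378. By limma 1 of 8, Bcl11b, was called lower in CAMK (48.9 to 27.6 FPKM, adjusted p = 0.0397), where 0.273% of all genes were. Meningeal markers summed to 46.7 to 68.2, 71.4 to 81.7 and 74.5 to 158, and 4 of 8 were called higher in CX3CL1-ct against WT (Col1a2, Slc6a13, Aldh1a2 and Foxc1, adjusted p at most 0.0420), where 0.2% of all genes were. None of these lists had a marker at 0 throughout a group. WT 1, which has the lowest striatum level of the WT libraries, also has the lowest Wdr60, Ncapg2 and Esyt2 among them, but the highest Ptprn2 (33.3 FPKM). CX3CL1-ct 5, which has the highest striatum level of the driver libraries, has the highest Wdr60 of them. Its Esyt2 (8.90 FPKM), Ncapg2 (1.49) and Ptprn2 (20.9) lie within the range of the other driver libraries. The part of these markers in the levels of the chromosome 12 genes was not tested.

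The tested genes elsewhere whose pattern over the 12 libraries was most like the mean of Wdr60, Esyt2, Ncapg2 and Ptprn2 were RP24-459A4.6 (Pearson r = 0.975), Zbtb8os (0.968), Col6a5 (0.959), Gm364 (0.956) and AI662270 (0.951). These correlations are a description over libraries of 3 groups, and they follow the step between WT and the driver. Of the 5, Zbtb8os (chromosome 4) was the only one that kept more than 0.5 of its level, at 1.90 FPKM in WT, 1.27 in CAMK and 1.23 in the CX3CL1-ct group, or ratios of 0.668 and 0.648. It was not called (adjusted p = 0.148 and 0.0802 by limma). The other 4 fell to ratios of 0.0185 to 0.215 in CAMK and 0.0743 to 0.242 in CX3CL1-ct, below the 0.440 to 0.666 of the chromosome 12 genes. These 4 reached 1 FPKM in WT libraries only. They passed the filter through WT alone, which favours low ratios in the driver groups.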

How the data were processed

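RNA was measured in 12 libraries, 3 WT, 3 CAMK and 6 CX3CL1-ct, grouped by their titles. The deposited table holds FPKM values made by the authors, and the submitters' processing notes list Bowtie, TopHat, Cuffdiff and Cufflinks with build mm10. Versions, scaling and use of strand are not given in the sources used here. The library kit is stranded, per the labels.

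FPKM were used as deposited. Genes with at least 1 FPKM in at least 3 of 12 libraries were kept (16503 of 29454). limma 3.58.1 in R 4.3.3 fitted 3 group means to log2(FPKM + 1) over all 12 libraries, with eBayes and trend, two-sided, Benjamini-Hochberg adjusted over all genes tested, threshold 0.05. The steps were tested on simulated data. Depth was estimated from single-exon, single-transcript genes of 500 to 5000 nt, assuming fragments of 180 nt. IDs were matched to GENCODE M21 (29258 matched), which gives the coordinates. Python 3.11.15, pandas 2.3.3 and numpy 2.4.6 made the tables.

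Members, lists and tests were chosen with earlier results of these data known. The named genes are the members, the 5 tested genes nearest on each side, 13 relatives or partners, list members past the threshold, the 5 most alike genes and runs of 3 or more called neighbours. Of the 14 lists, 5 hold the pathways of the members and 9 mark cell types. CAMK and WT libraries of the same number deviated together from their group means, but weakly (r = 0.236, 0.163 and 0.100). CX3CL1-ct libraries did not do so at every number, with r of 0.110, -0.130 and -0.0912 to CAMK and of 0.114, -0.0622 and 0.0106 to WT. Of these, 0.110 and 0.114 lie above the 0.100 of CAMK 3 with WT 3. No label states a pairing, so calls made with the block rest on the weak correlations of CAMK with WT. Alternatives changed the pseudocount, filter, scaling, model, block, reference and libraries. Leaving out or averaging CX3CL1-ct 1 to 3 and WT 1 as sole reference were added after seeing the data.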

Additional observations from a re-analysis of the deposited data

Results flagged for a closer look

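Of 29 quantities examined over the 6 CX3CL1-ct libraries, 3 had 1 library far from the others, where chance gives about 1 in 20. Wdr60 was at 3.05 FPKM in CX3CL1-ct 5, above the 2.00 to 2.39 of the other 5, with a gap to its nearest neighbour of 0.626 of the group's range. Ncaph2 was at 15.8 FPKM in CX3CL1-ct 5, below the 17.4 to 17.9 of the other 5. Adcyap1 was at 5.37 FPKM in CX3CL1-ct 4, below the 8.43 to 9.21 of the other 5.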

How the results depend on the processing

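At an estimated 12 to 40 fragments per library, depth limits what can be said of Vipr2. Over all genes, the number called between CX3CL1-ct and CAMK was 10, and 171 with the replicate block. No label states that libraries of the same number are paired. Only CX3CL1-ct 1 to 3 share a number with CAMK and WT libraries. In the block fit the other CX3CL1-ct libraries therefore add nothing to the level or the spread, and its counts are not a test of pairing alone. The block gave 490 in place of 59 for CAMK against WT and 540 in place of 75 for CX3CL1-ct against WT. Without the filter these were 123 and 144, with CX3CL1-ct 1 to 3 averaged 26 and 28, with them left out 20 and 25, and for CX3CL1-ct against WT over 2 groups only 38. Leaving out 1 library gave 9 to 12, 21 to 153 and 26 to 158. The cause was not tested.

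The median ratio of the stretch in CAMK, 0.558, was 0.541 divided by the flanking genes, 0.652 as a mean over the 5 genes, 0.518 without Vipr2 and 0.589 against WT 1 alone. In CX3CL1-ct, 0.572, it was 0.652 as a mean, 0.614 with CX3CL1-ct 1 to 3 left out and 0.527 against the WT library of the same number. Leaving out 1 library gave 0.542 to 0.582 and 0.558 to 0.589. 

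Of the single genes, 548 values kept their direction and side of the threshold, 46 changed sign and 2 passed with the block (Ptprn2, CX3CL1-ct minus CAMK, -0.30, adjusted p = 0.0449, and Ncapg, above). Between CX3CL1-ct and CAMK, Zfp386 became 0.032 with CX3CL1-ct 1 to 3 averaged and 0.073 without them (-0.073 to 0.034 without 1 library). Wdr60 became -0.012 under median-of-ratios scaling, -0.011 under upper-quartile scaling and -0.0090 with the block (-0.040 to 0.048), Esyt2 -0.023, -0.022 and -0.026 (-0.016 to 0.045), and Ptprn2 0.057 without CX3CL1-ct 1 to 3. Rapgef5 ran from -0.016 to 0.11 without 1 library. For CAMK against WT, Esyt3 ran from -0.13 to 0.016, Ncaph2 from -0.13 to 0.045, Vip from -0.087 to 0.072 (-0.0048 under upper-quartile scaling), Wdr34 from -0.069 to 0.22 and Dync2h1 from -0.14 to 0.033. For CX3CL1-ct against WT, Esyt3 became -0.041 without CX3CL1-ct 1 to 3, Ncapd3 ran from -0.10 to 0.057 and Vip from -0.16 to 0.014. Wdr34 became -0.042, -0.061 and -0.050 under median-of-ratios scaling, upper-quartile scaling and the block (-0.073 to 0.10), and Dync2li1 -0.0031, -0.021 and -0.031 (-0.076 to 0.11).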

Other observations

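Cdca7l, which encodes a MYC-binding protein and lies on the far side of Rapgef5, showed the same division of the CX3CL1-ct libraries as Sp8. It stood at 2.38, 2.38 and 2.18 FPKM in CX3CL1-ct 1, 2 and 3 and at 0.883, 1.23 and 0.717 in CX3CL1-ct 4, 5 and 6, and it was not called against CAMK (limma adjusted p = 0.822) or against WT (0.830).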
